A study of Mus musculus with 2 samples.

Results

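The brown-fat-specific PPARγ regions are the rows of the deposited list for brown adipose tissue (BAT), a list named by the authors as specific to that depot. All 3557 rows were taken, out of 8268 regions in the series, and the other 4711 form the list for epididymal white adipose tissue (eWAT), used here as a background alone. The BAT library and the eWAT library each came from pooled DNA of 4 male 129SV mice, 8 to 10 weeks old, on normal chow, with no treatment or altered allele named. The tissue was taken at zeitgeber time 10 h (10 hours after lights on), cross-linked with 1% formaldehyde and precipitated with an antibody against PPARγ. With 1 library per tissue there was no spread between animals to measure, so no difference below has a replicate check and no p-value is given. Whole tissue was used, so binding in fat cells and in other cells of the depot cannot be told apart.

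PPARγ is the nuclear receptor that drives fat cell formation, and it binds DNA together with RXR at direct repeats of a short hormone-receptor site. Brown adipose tissue burns fatty acids for heat through uncoupling protein 1, while epididymal white fat stores lipid. In both kinds of fat cell the receptor occupies many enhancers at a distance from gene starts, and neighbouring enhancers are often bound in groups. The series title concerns EBF2, a transcription factor of brown fat cells, and the depots are compared through regions that the authors listed as specific to each. How that specificity was set is not given, so absence of binding in white fat at these regions is not shown.

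Positions are 1-based and taken as mm9. The submitters' processing notes name both mm8 and mm9, and the list does not say which of them its positions use. The gene table used here is for another assembly, GRCm38. No region was therefore placed relative to a gene or given a gene's name, and no sequence was read. On 5 of 20 chromosomes the BAT list ran past the last gene of that table, with 40 regions beyond it, 2 of them on chromosome 1. That check used the last gene and not the chromosome end, and it does not tell mm8 from mm9. Loci are named by chromosome and position.

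The strongest brown-specific sites were spread over the genome. The rule for naming took the 10 highest scores, which became 11 regions because of a tie, and these lay on 8 chromosomes. The score, deposited without a unit, rose in even steps of 0.0687, and 3552 of the 3557 scores (99.9%) were whole multiples of that step within 0.005. A score divided by its step is given below as a number of steps. Exact Poisson intervals (95%) treat a step as a tag, which the files do not state, and cover counting error only.

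The highest score of the list, 20.12 (293 steps, interval 260 to 329), was at chr11:116615530-116615729. Its only BAT-specific neighbour within 12500 bp was a weak region at chr11:116606232-116606431, 9.30 kb away, with a score of 2.40. The second strongest site, at chr7:104563056-104563255, scored 16.55 (241 steps, interval 212 to 273) and had its nearest BAT-specific neighbour 113 kb away. The next site, at chr5:38669585-38669784, scored 15.80 (230 steps, interval 201 to 262). In all, 2 regions had an upper counting limit that reached the lower limit of the highest, and they were the chromosome 7 and chromosome 5 sites.

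Of the further sites in this group, chr14:68244354-68244553 scored 15.45, chr2:79209313-79209512 scored 15.31 and chr4:55674933-55675132 scored 14.63. Scores of 13.32 were reached at both chr18:75198789-75198988 and chr6:92824837-92825036. The last 3 were chr18:62018956-62019155 with a score of 13.19, and chr14:67140752-67140951 and chr2:30265077-30265276, tied at 13.12. Their counting intervals overlapped one another, so the order among these 8 is not resolved at this depth.

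Of the 11 strongest sites, 1 had another BAT-specific region within 12500 bp, and the median distance to the nearest was 33.4 kb. Over the whole list 850 regions (23.9%) had one that close and the median distance was 61.4 kb, and of the 100 highest scores 37 had one. The nearest eWAT-specific region was 24.2 to 568 kb away (median 126 kb), and 2 of the 11 had one within 50 kb. That share is near the background, since over the whole BAT list 750 regions (21.1%) had an eWAT-specific region within 50 kb.

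Most brown-specific sites were much weaker than these. The quartiles of the score were 2.68 and 4.88 around a median of 3.57, the upper 10% of the list began at 6.87 and the lower 10% ended at 2.33. A score of at least 5 was reached by 843 regions (23.7%, exact binomial 95% interval 22.3 to 25.1%), at least 10 by 82 (2.31%, interval 1.84 to 2.85%) and at least 15 by 5. Within this list the summed score was spread over many sites, not held by a few. The top 1% of the list (36 regions) carried 3.16% of it, the top 10% carried 21.6% and the top 50% carried 67.4%. The list holds tissue-specific regions alone, so these shares do not describe all PPARγ binding in brown fat.

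**Figure D1:**
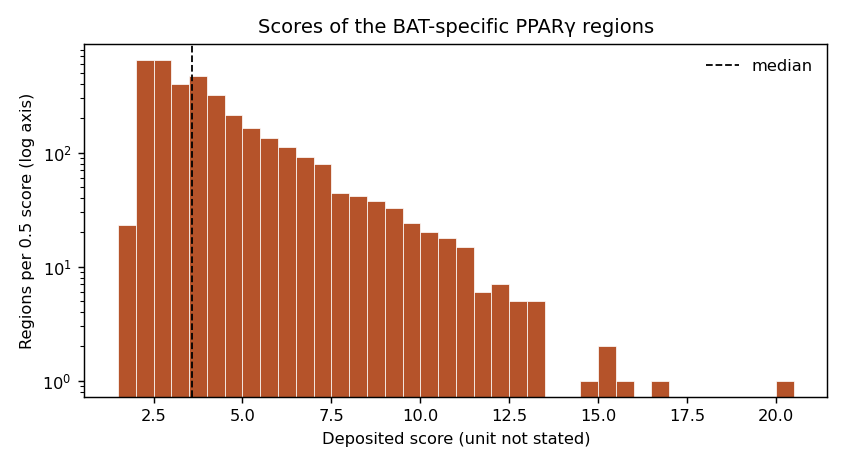
Number of brown-specific PPARγ regions (vertical axis, log scale) in each 0.5-wide class of the deposited score (horizontal axis, unit not stated), with the median as a dashed line. The bulk lies at low scores around the median of 3.57, and the classes thin out to the single region at 20.12.

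Brown-specific sites were found on each of the 19 autosomes and on chromosome X. Counted over the span from the first to the last region of the chromosome, the autosomes held 1.16 regions per Mb (chromosome 1, 223 regions) to 1.96 per Mb (chromosome 11, 231 regions). Chromosome 2 had the most regions, 312, at 1.75 per Mb, and chromosome 18 had 143 at 1.78 per Mb. Chromosome X stood below every autosome, with 37 regions in 160 Mb, or 0.231 per Mb. The eWAT list was also sparse there, at 0.484 per Mb against 1.56 to 2.91 on the autosomes. The mice were male, and nothing further was tested on X.

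Typical strength varied little between chromosomes. The median score ran from 3.02 on chromosomes 19 and X to 3.95 on chromosome 5, and the quartiles of all chromosomes overlapped. Chromosome 15 had the highest upper quartile, 5.79, and chromosome 11, with the single strongest site, had an upper quartile of 4.50. On X the strongest region scored 7.42, below the strongest region of each autosome, the lowest of which was 8.86 on chromosome 19.

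**Figure D2:**
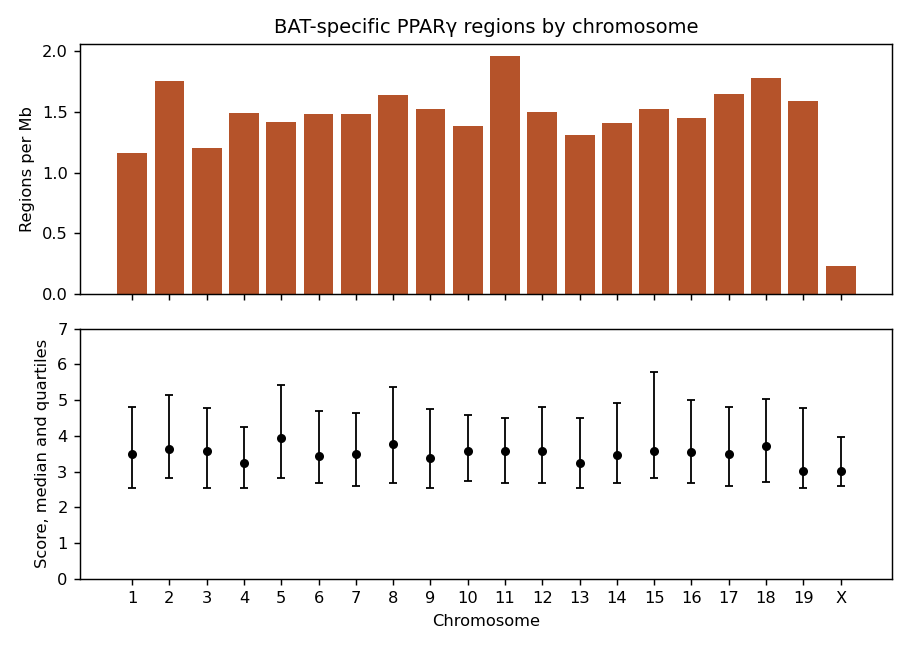
Brown-specific PPARγ regions per Mb of covered span (upper panel, bars from 0) and the score of those regions (lower panel, points are medians and bars run from the lower to the upper quartile) for each chromosome. Autosomes lie between 1.16 and 1.96 regions per Mb and X at 0.231, while the medians stay between 3.02 and 3.95.

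Long stretches held no brown-specific site. The longest empty stretch on an autosome was on chromosome 7, 13.9 Mb between 56624131 and 70481051. It was followed by 12.9 Mb on chromosome 16 (60985318 to 73870763) and 12.0 Mb on chromosome 1 (94827147 to 106835856). The median over autosomes of the longest gap was 8.16 Mb, and chromosome X had one of 22.4 Mb (138998914 to 161390189).

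At short range the sites were uneven. From one region to its nearest neighbour on the list, the distance between midpoints ran from 245 bp to 15.5 Mb, with quartiles at 13.6 and 225 kb. Within 1 kb of another lay 158 regions (4.44%), and within 50 kb 1650 (46.4%). At the other end, 464 regions (13.0%) had no neighbour within 500 kb and 177 (4.98%) none within 1 Mb, of which 14 were on chromosome X.

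The share of brown-specific regions with their nearest neighbour 2 to 5 kb away was 6.44% (interval 5.65 to 7.30%), against 4.20% (3.65 to 4.82%) of the eWAT list. At 1 to 2 kb it was 3.82% (3.22 to 4.51%) against 2.61% (2.17 to 3.11%). At 100 to 200 kb the order was the other way, with 13.1% (12.0 to 14.3%) of the BAT list and 17.0% (15.9 to 18.1%) of the eWAT list. Neither list was the closer one at every range: up to 0.5 kb the shares were 1.52% for BAT and 1.85% for eWAT, at 500 to 1000 kb 8.07% and 6.84%, and beyond 1 Mb 4.98% and 3.82%. The lists differ in length and paired neighbours are not independent, so these differences were not tested.

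**Figure D3:**
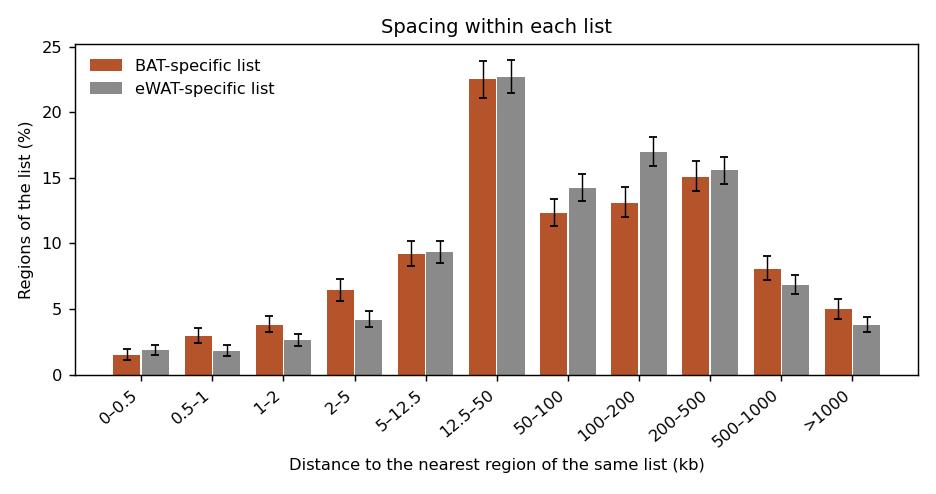
Share of each list (vertical axis, percent) by the distance to the nearest region of the same list (horizontal axis, kb), with exact binomial 95% intervals. The BAT-specific list has 6.44% at 2 to 5 kb against 4.20% for eWAT, and 13.1% at 100 to 200 kb against 17.0%.

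The tightest pair lay on chromosome 6, where regions at chr6:91671258-91671457 (score 4.19) and chr6:91671503-91671702 (score 3.91) were 245 bp apart. The pair of adjacent regions up to 1 kb apart with the highest weaker member was on chromosome 13, with a score of 6.39 at chr13:38445443-38445642 and of 9.0 at chr13:38445823-38446022, 380 bp away. Among the 79 adjacent pairs up to 1 kb apart, the stronger member had a median score of 5.84 and the weaker one of 3.23. The median ratio of stronger to weaker was 1.54 in these pairs. In the 1748 adjacent pairs more than 200 kb apart it was 1.47, so the split was not particular to tight pairs. Spearman's rho between the scores of adjacent regions was -0.13 over the 79 tight pairs, 0.14 over 196 pairs at 1 to 5 kb and 0.04 over 192 pairs at 5000 to 12500 bp. These values describe pairs of 1 library that share regions, and carry no test.

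By score class, strong sites were more often in company than weak ones. Of the 30 highest scores, 7 had another BAT-specific region within 12500 bp, near the share of the whole list (23.9%), and of the 100 highest 37 had one. With 30 regions it cannot be told whether the very strongest depart from the other strong sites. The list was divided by score into 10 classes of equal size, with ties split by position. In the highest class, with scores of 6.87 and above, 134 of 356 regions (37.6%, interval 32.6 to 42.9%) had another BAT-specific region within 12500 bp. In class 2 the share was 27.5% (23.0 to 32.5%), and in the other 8 classes it lay between 16.9 and 25.8%, with 18% (14.2 to 22.4%) in the lowest. Below class 2 there was no steady order. The nearest neighbour of a region in the highest class had a median score of 3.85 (quartiles 2.95 and 5.54), and 24 of the 134 neighbours (17.9%) reached the scores of that class. For the lowest class the neighbours' median was 3.91, and 6 of 64 (9.38%) reached those scores, as did 10.2% of the whole list.

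Closeness to white-fat-specific sites showed no gradient by score class when counted within 50 kb. That distance is wider than the 12500 bp used for brown-specific neighbours, so the shares are not a like comparison. The share of brown-specific regions with an eWAT-specific region within 50 kb lay between 19.1 and 23.9% in each of the 10 classes, and was 21.6% (17.5 to 26.3%) in the highest. Within the eWAT list itself, the share with a close neighbour of that list went from 26.9% (23.0 to 31.2%) in its highest class to 14% (11 to 17.5%) in its lowest. By score class, strong sites of either list were thus more often close to another of their own list than weak ones. This difference was not tested, because neighbours are not independent. On the eWAT list the lower 10% limit and the lower quartile of the score were both 2.09, so tied scores were divided by position between its lowest classes. On the BAT list these limits were 2.33 and 2.68. The total per library is unknown, so the scores of the lists are not on a known common scale. A score step was fitted for the BAT list alone, and the depth of the 2 libraries was not compared. The comparisons of spacing, neighbours and clusters between the lists are therefore not adjusted for depth.

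**Figure D4:**
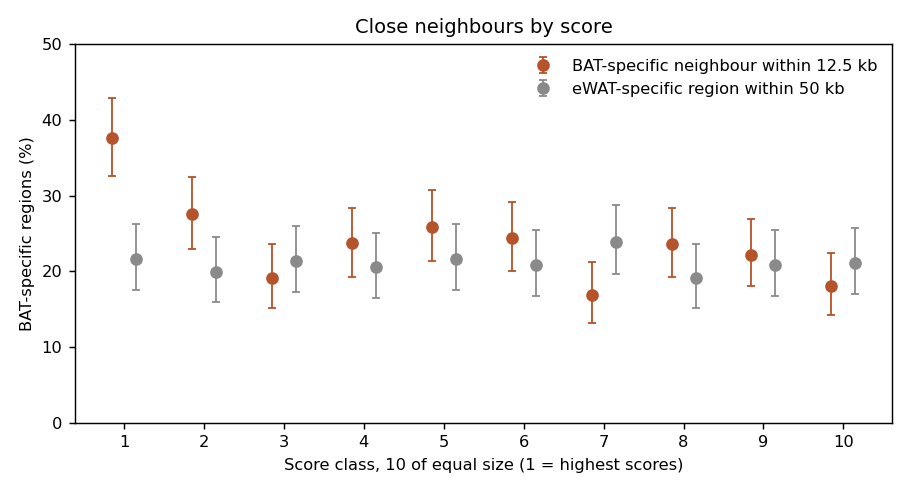
Share of brown-specific regions (vertical axis, percent, exact binomial 95% intervals) with a BAT-specific neighbour within 12500 bp and with an eWAT-specific region within 50 kb, by score class from the highest scores (1) to the lowest (10). The first share is 37.6% in class 1 and 18% in class 10, and the second stays between 19.1 and 23.9%.

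The list was crowded at a small number of loci. Neighbours within 12500 bp were joined into clusters, which turned the 3557 regions into 3090 separate positions, of which 383 held at least 2 regions. Median scores were higher in clusters than at single sites, with 3.43 for the 2707 single regions, 3.67 in pairs, 4.19 in clusters of 3 (144 regions) and 4.05 in clusters of at least 4 (70 regions). The quartiles of these classes overlapped widely, at 2.61 and 4.74 for single regions and 2.92 and 6.04 for clusters of at least 4. The 17 clusters of at least 4 regions lay on 13 chromosomes and spanned 3.55 to 32.6 kb. Of these, 15 held 4 regions and 2 held 5. The eWAT list had 12 clusters of 4 and 1 of 5. Its clusters of up to 5 do not account for all its 4711 regions, so it also held larger ones, which were not counted. No BAT cluster was that large. With BAT-specific neighbours joined within 5 kb there were 3 clusters of at least 4, and within 50 kb 80. None of the 17 had an eWAT-specific region within 12500 bp of a member, and 4 had one within 50 kb. Over all 3090 positions the shares were 5.76% and 21.7%, so neither count stands apart from the list. The median distance to the nearest eWAT-specific region was 132 kb over the 17 clusters (14.6 to 360 kb) and 146 kb over the single regions.

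The cluster with the highest summed score, 32.8, lay on chromosome 15 from 85551275 to 85562458. Along the chromosome its 4 regions scored 12.77, 7.49, 5.29 and 7.21. The first of them stood apart from the others, with 186 steps (interval 160 to 215) against 109 (89.5 to 131) for the next strongest. The nearest eWAT-specific region was 23.2 kb from this cluster.

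The cluster of 5 regions on chromosome 8 (85796451 to 85811850) had a summed score of 30.8 and was graded from weak to strong. From the lower to the higher coordinate, its regions scored 2.54, 3.64, 4.94, 10.16 and 9.55. The 2 strong regions lay side by side, 2.19 kb apart, at chr8:85809465-85809664 (148 steps, interval 125 to 174) and chr8:85811651-85811850 (139 steps, interval 117 to 164), with overlapping intervals. Between them and the 3 weaker regions was a gap of 6.95 kb.

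The other cluster of 5, on chromosome 2 (35288142 to 35308229), had its strong regions at the ends. Its scores in order were 5.84, 3.98, 2.33, 3.71 and 8.79, and the weakest region came after an open stretch of 11.9 kb.

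A further dense locus on chromosome 2, between 174372950 and 174435663, held 2 clusters with 7 regions in all. The first, of 3 regions within 1.69 kb, scored 5.49, 8.86 and 11.40. The second began 56.2 kb further on and scored 4.46, 8.52, 4.60 and 8.17 within 5.05 kb. Both sums were 25.8, the nearest eWAT-specific region was 252 kb away, and the 7 regions together carried a summed score of 51.5 in 62.7 kb.

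In 3 further clusters of 4 regions the strongest and the next strongest score were close. On chromosome 19 (34894142 to 34924182) the scores were 7.83, 5.77, 3.78 and 7.76, the end regions lying 29.8 kb apart. On chromosome 9 (62353901 to 62372894) they were 8.38, 3.37, 8.72 and 4.46. On chromosome 14 (79672786 to 79687065) they were 4.19, 6.11, 6.39 and 2.88, and this cluster was the one of the 17 closest to an eWAT-specific region, at 14.6 kb.

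The remaining 3 of the 10 named clusters of at least 4 regions differed in arrangement. On chromosome 5 (89346742 to 89367558) the scores fell in order from 10.44 through 7.69 and 4.53 to 2.54 over 20.8 kb. On chromosome 10 (92748347 to 92760823) a single region led, with a score of 7.90, and the rest scored 3.16, 2.75 and 3.37. On chromosome 8, at a second locus (127446790 to 127461527), the scores were 2.61, 4.88, 3.37 and 5.84, as 2 close pairs 12.3 kb apart.

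Over the 17 clusters the strongest region was at an end in 8 and inside in 9. In 13 of them the counting intervals of the strongest and the next strongest region overlapped, and in 4, on chromosomes 15, 2 (the cluster of 5), 10 and 11, they did not. The strongest exceeded the weakest by a median factor of 2.24. The other 7 clusters had summed scores of 10.7 to 16.6, and 3 of those, on chromosomes 4, 12 and 6, had no region that reached a score of 5. The least of them, on chromosome 6 (30116965 to 30120514), held 4 regions of 2.40 to 3.02 within 3.55 kb.

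**Figure D5:**
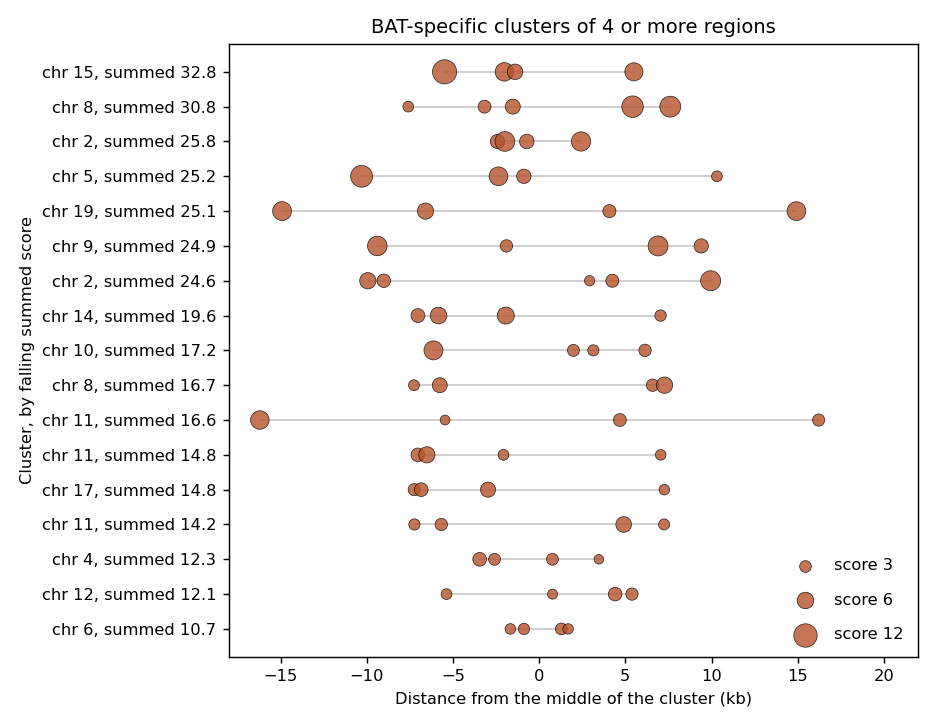
The 17 clusters of at least 4 brown-specific regions, 1 per line and ordered by summed score, with each region placed by its distance from the middle of the cluster (horizontal axis, kb) and drawn with an area that follows its score. The chromosome 15 cluster (32.8) is led by 1 region, the chromosome 8 cluster (30.8) has its 2 strongest regions (10.16 and 9.55) at 1 side, and the chromosome 6 cluster (10.7) is compact and weak throughout.

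Among clusters of 3 regions, 3 reached the 10 highest summed scores of all clusters, and among them was the trio on chromosome 2 described above. Another, on chromosome 15 from 89249003 to 89262028, scored 6.11, 12.84 and 7.07, a sum of 26. The last, on chromosome 2 from 73333976 to 73349338, scored 7.49, 7.21 and 8.72, with 447 kb to the nearest eWAT-specific region.

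On a wider scale, with neighbours within 50 kb joined, 1650 regions fell into groups of at least 2, and 11 groups held 6 to 8 regions. The largest, with 8 regions, was on chromosome 17 (29521765 to 29577096), where all scores were modest, from 2.47 to 5.29. Its nearest eWAT-specific region was 360 kb away.

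The strongest of these groups was on chromosome 19 (34894142 to 34976128), where 3 more regions, with scores of 6.73, 8.58 and 4.88, followed the cluster of 4 described above. Its 7 regions had a summed score of 45.3, with none below 3.78. A group of 6 on chromosome 18 (61543325 to 61691781) was likewise strong throughout, with scores of 10.16, 9.48, 5.84, 6.25, 6.94 and 4.12, and it held no pair closer than 13.8 kb.

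On chromosome 12 (80997053 to 81037886) a group of 7 combined weak and strong. The first 6 regions scored 2.20 to 4.05, and the last, 12.6 kb beyond them, scored 12.64 (184 steps, interval 158 to 213). On chromosome 16 (13455746 to 13557315) the strongest of 7 regions, 10.37, lay inside the group beside one of 7.35. Among the 11 groups, the one on chromosome 11 (117052946 to 117126124, 7 regions, highest score 11.81) was the one with an eWAT-specific region inside it, 6.51 kb from a member.

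The crowding was also counted in fixed windows of 1 Mb. Of 2570 windows, 1309 (50.9%) held at least 1 brown-specific region, 214 held at least 5, with 39.5% of the list, and 22 held at least 10, with 237 regions (6.66%). On this grid the fullest, on chromosome 2 from 35 to 36 Mb, held 14 regions with a median score of 4.19, beside 3 eWAT-specific regions, and included the cluster of 5. With the grid shifted by 0.5 Mb the fullest was on chromosome 11 from 116.5 to 117.5 Mb, with 19 regions beside 2 eWAT-specific ones, among them the highest-scoring site of the list. Windows with 12 regions were found on chromosome 11 (117 to 118 Mb, 4 eWAT-specific), chromosome 13 (37 to 38 Mb, 0 eWAT-specific) and chromosome 18 (39 to 40 Mb, 3 eWAT-specific). The 22 windows together held 45 eWAT-specific regions, and in none did these outnumber the brown-specific ones. The windows were selected for many brown-specific regions, so that balance is a description. On the main grid the longer eWAT list had 25 windows with at least 10 of its own regions, so crowding was not particular to the brown list. Spearman's rho between the window counts of the lists was 0.38.

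Isolated sites were not all weak. The 177 regions with no other within 1 Mb had a median score of 2.95. Of these, 32 had an eWAT-specific region within 50 kb, a share near the 21.1% of the whole list (750 of 3557). The strongest scored 10.99, at chr10:102148590-102148789, 1.05 Mb from the nearest brown-specific region and 2499 kb from the nearest eWAT-specific one. The next 4 scored 8.86 to 9.55, and of these chr3:54609060-54609259 (9.48) had an eWAT-specific region 2.43 kb away. The region farthest from any other was on X, at chrX:122979475-122979674, 15.5 Mb from its neighbour, with a score of 2.75. Across the list, distance to the nearest brown-specific region and score were weakly related (Spearman's rho -0.11 over 3557 regions, a description of 1 library).

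The names on the list end in a number, deposited without explanation, that restarts on each chromosome. The lowest number on the list belonged to the highest-scoring region on 18 of 20 chromosomes. Number 1 was on the list for none of the chromosomes, and the lowest number present was 2 on chromosome 11, 3 on chromosome 7 and 36 on chromosome 13 (median 11.5). Of the 200 numbers from 1 to 10, 12 were on the BAT list (6%, interval 3.14 to 10.2%). Of the 5720 numbers from 201 to 500, 1245 were (21.8%, interval 20.7 to 22.9%), with a median score of 4.12. On the eWAT list 26 of the numbers from 1 to 10 were present (13.0%, interval 8.67 to 18.5%). Its share was 21.1% from 201 to 500 and 15.4% above 500, close to the BAT list. What the absent numbers stand for is not given in the sources used here.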

How the data were processed

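PPARγ ChIP-seq gave 1 library of BAT and 1 of eWAT, each pooled from 4 mice per the labels' protocols. The authors deposited 1 list per tissue, in which each row holds a position, a name and a score without a stated unit. Bowtie, HOMER and the builds mm8 and mm9 appear in the submitters' processing notes, with no version or role. How peaks were thresholded and made tissue-specific is not given in the sources used here.

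All regions of the BAT list are 200 bp wide and were all used. Distances are between midpoints, and clusters join neighbours within 12.5 kb. The score step was fitted by least squares, and the total per library is unknown. Python 3.11.15, numpy 2.4.6, pandas 2.3.3 and scipy 1.17.1 were used. The code that counts neighbours and clusters was checked on made-up positions with known answers, and crowding was not set against chance. Groups follow the tissue in the labels.

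The members, the cluster distance and the naming rule (the 10 highest scores, ties included, and all clusters of at least 4 regions, with values for the 10 of highest summed score) were chosen with earlier results of these data known. Clusters of 3, groups joined at 50 kb, windows, score classes, isolated regions and name numbers were chosen after values were seen. Gene positions, gene lists and motifs were planned and not run, since the gene table used here is of another assembly.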

Additional observations from a re-analysis of the deposited data

How the results depend on the processing

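The share of BAT-specific regions with a close neighbour was 23.9% at 12500 bp, 14.7% at 5 kb, 46.4% at 50 kb, and 16.0% in the upper part of the list by score (1779 regions of 3.57 and above), where fewer regions are left to be neighbours. Clusters of at least 4 regions numbered 17, and 3 at 5 kb, 80 at 50 kb and 4 in the upper part by score, so the number of crowded loci depends on the distance chosen. The median score, 3.57, was 3.64 with the highest score of each cluster alone. In 2 alternatives chosen after seeing the data, windows shifted by 0.5 Mb gave 16 with at least 10 regions in place of 22, and neighbours more than 1 kb away alone gave 33.1% in the highest of the 10 score classes and 16.3% in the lowest, in place of 37.6% and 18%. What had been planned on genes, motifs and a second build was not run. No library could be left out, since each tissue has 1. No paired analysis was possible because 1 library stands for each depot. If a step is a tag, counting error limits the order of sites with like scores.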
